A study of Ovis aries with 15 samples.

Results

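The promoter states of perirenal fat from lambs were described by joining 3 chromatin marks, H3K27ac, H3K4me3 and H3K27me3, at the same genes. The members were the 7 lamb libraries with promoter values, of 15 samples in the series, and the 18460 genes that at least 1 of the 3 deposited promoter tables lists. Genes were joined by the Ensembl identifier in the first column of each table and sorted into 7 classes by the tables that list them. No fetal value entered a level, a rank or a test.

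Histone H3 acetylated at lysine 27 (H3K27ac) and trimethylated at lysine 4 (H3K4me3) mark active promoters, and trimethylation at lysine 27 (H3K27me3) is laid down by Polycomb repressive complexes at silenced genes. Promoters with both H3K4me3 and H3K27me3 are called bivalent and are known from developmental regulators that are off but can still be switched on. Perirenal fat of sheep is a brown, heat-producing tissue around birth and takes on the features of white fat in the weeks that follow, and this change is what the series set out to profile.

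The lambs were wild type purebred merino sheep that received no treatment and were killed about 80 days after birth by the sample label, or 89 ± 7 days by the growth protocol. Lambs 1 and 2 gave a library for each mark and lamb 3 gave H3K4me3 only, so n = 2 for H3K27ac and H3K27me3 and n = 3 for H3K4me3. The same animal codes stand in the titles of all 3 marks, each with the ending VEH, whose meaning no label explains, and the sex of the lambs is not in the labels. Chromatin from frozen whole tissue was cut with micrococcal nuclease to about 150 bp, precipitated with 10 µg of antibody and sequenced as 50 bp single-end reads. In whole tissue, 2 marks on 1 promoter may sit in the same cells or in different cells, and fewer cells with a mark cannot be told apart from less of it per cell.

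The H3K27ac libraries held 6257855 and 5109478 promoter reads, the H3K4me3 libraries 9988090, 2476065 and 2542840, and the H3K27me3 libraries 407567 and 324662. A median promoter therefore rested on 454 and 369 reads for H3K27ac, on 620, 160 and 161 for H3K4me3, and on 54 and 43 for H3K27me3, the mark with the least precise values. Levels are given in RPM, promoter reads scaled to a total of 1000000 a library and then between lambs, and ranks as percentiles within a mark's own table, where 100 is the highest. Across promoters the lambs' levels had a Spearman correlation of 0.94 for H3K27ac, 0.90 to 0.95 for H3K4me3 and 0.80 for H3K27me3, given as descriptions over genes. The H3K4me3 library of lamb 1 stood apart by its wider spread, with quartiles of 29.2 and 109 RPM, against 44.1 and 88.5 in lamb 2 and 39.8 and 92.5 in lamb 3. Libraries ran on 1 of 2 sequencing platforms, and which ran on which is not stated, so no split by platform could be made. Every promoter of a table reached a deposited value of about 50 in at least 1 library of the series (50.2 for H3K27ac, 50.7 for H3K4me3 and 51.5 for H3K27me3). Whether every gene that a table does not list lies below that level is not stated. An unlisted gene is therefore not the same as one without the mark.

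Promoters with the pair of active marks and no H3K27me3 made up the largest class, 8199 genes or 44.4% of all. The classes with H3K27me3 were 2425 genes with that mark alone (13.1%), 1910 with all 3 marks (10.3%), 1612 with H3K4me3 and H3K27me3 but no H3K27ac, called bivalent here (8.73%), and 387 with H3K27ac and H3K27me3 (2.10%). A further 2726 genes had H3K27ac alone and 1201 had H3K4me3 alone. Of the H3K27ac promoters, 76.5% were also in the H3K4me3 table, and of the H3K4me3 promoters 78.2% were also in the H3K27ac table. Of the 6334 H3K27me3 promoters, 55.6% were in the H3K4me3 table and 36.3% in the H3K27ac table. Because a listing can rest on a fetal library, the lamb values were set against the same level. No lamb reached it at 80 H3K27ac, 78 H3K4me3 and 135 H3K27me3 promoters. With every lamb library required to reach the level, 1485 bivalent, 1590 three-mark and 2410 H3K27me3-only genes were left, and with every lamb at 2 times the level the three-mark class fell to 807.

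**Figure D1:**
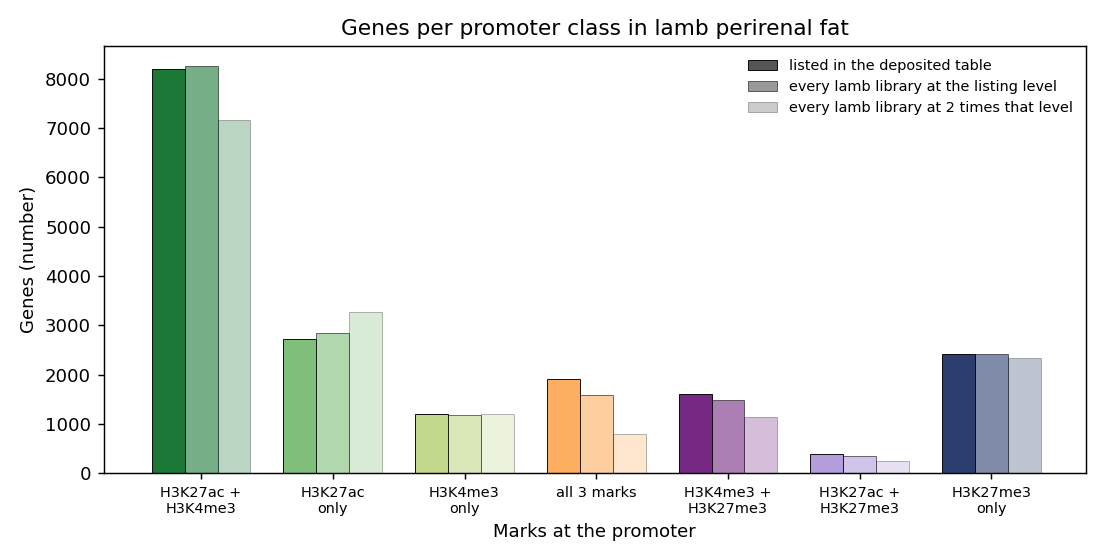
Number of genes (y axis) in each class of marks at the promoter (x axis), with 3 bars a class for genes listed in the deposited tables, genes with every lamb library at the listing level, and genes with every lamb library at 2 times that level. The three-mark class drops from 1910 to 807 genes over these settings, and the H3K27me3-only class stays between 2338 and 2425.

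The level of 1 mark went with the presence of the others. Among the top decile of H3K27ac promoters, 94.3% were also in the H3K4me3 table and 5.82% in the H3K27me3 table, against 73.8% and 33.4% in the bottom decile. Among the top decile of H3K4me3 promoters, 96.7% carried H3K27ac, against 48.6% in the bottom decile. H3K27me3 followed another course. H3K27ac listing fell along the H3K27me3 ranking, from 66.4% in the lowest decile to 14.2% in the highest. H3K4me3 listing was high at both ends, at 75.8% in the lowest decile, 38.6% in the sixth and 82.1% in the highest. Ranking by lamb 1 alone gave 69.3%, 42.9% and 82.1% for the same 3 deciles, and by lamb 2 alone 74.1%, 38.9% and 82.4%. The strongest H3K27me3 promoters of lamb fat were thus mostly also H3K4me3 promoters without H3K27ac.

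**Figure D2:**
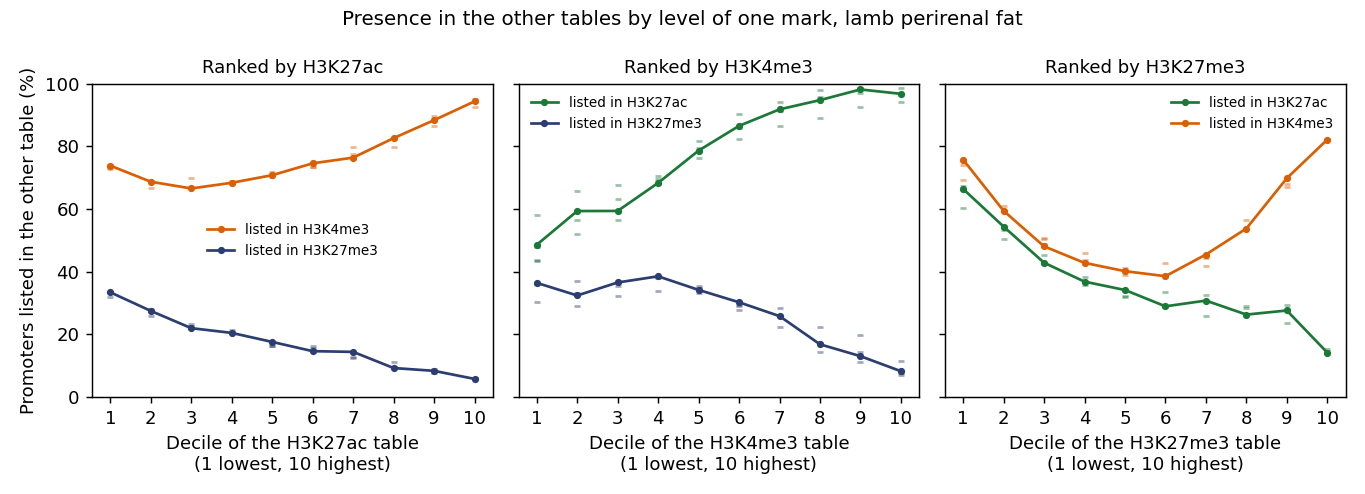
Share of promoters that another mark's table lists (y axis, percent) by decile of a mark's own level (x axis, 1 lowest to 10 highest), with 1 panel a ranking mark. Lines use the lamb mean and dashes rank by a single lamb library. The H3K4me3 line in the H3K27me3 panel runs from 75.8% down to 38.6% and up to 82.1%.

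Levels within the classes differed in the same order in each lamb. Bivalent promoters had a median of 199 and 194 RPM of H3K27me3 in lambs 1 and 2, H3K27me3-only promoters 133 and 135, three-mark promoters 110.4 and 105, and promoters with H3K27ac and H3K27me3 103 and 105. Both lambs put the bivalent class highest, while the last 2 classes had nearly equal medians. Of the bivalent promoters 26.8% lay in the top decile of H3K27me3, against 4.58% of the H3K27me3-only ones. H3K4me3 went the other way. Its median was 86.5, 71.4 and 75.7 RPM in lambs 1, 2 and 3 at promoters with both active marks, 60.5, 62.7 and 60.5 at three-mark promoters, 27.1, 52.4 and 43.1 at bivalent promoters, and lowest at H3K4me3-only promoters, with 24.3, 42.5 and 34.0. The gap between the active pair and the bivalent class was widest in lamb 1, whose library has the wide spread noted above. H3K27ac had medians of 78.6 and 79.7 RPM with H3K4me3, 67.4 and 65.4 alone, 62.5 and 60.9 with all 3 marks, and 57.0 and 52.7 with H3K27me3 only. An exact paired test over 2 lambs cannot go below a two-sided p of 0.5, or 0.25 over 3, so these orders are given without a test. Across the 10109 promoters with both active marks their mean levels had a Spearman correlation of 0.49. The correlation of H3K27ac with H3K27me3 over 2297 promoters was 0.02. H3K4me3 with H3K27me3 over 3522 promoters gave 0.15, but -0.003 within lamb 1 and 0.35 within lamb 2, so no single value describes that pair.

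The most active promoters were taken as those of the class with both active marks whose lower percentile of the 2 was highest. TDP2, which repairs topoisomerase-linked DNA breaks, led with 229.5 and 326 RPM of H3K27ac and 327, 289 and 386 RPM of H3K4me3. HADHA, a subunit of the mitochondrial trifunctional protein that oxidises long-chain fatty acids, had 199 and 187 RPM of H3K27ac and 336, 205 and 201 of H3K4me3. Lamb 1 was the highest of the H3K4me3 libraries at HADHA, and the 2 H3K27ac libraries differed by little. B2M, the light chain of MHC class I, had 228 and 217 RPM of H3K27ac and 276, 189 and 212 of H3K4me3. Others among the 12 leaders were MRPS18B of the mitochondrial ribosome, ACAD11, an acyl-CoA dehydrogenase, HPS5 of lysosome-related organelle formation, SEPP1, the plasma selenium carrier, SPATA17, TRMT1L, MFSD8, a lysosomal membrane protein, and TRIM38. All 12 were at or above the 99.1 percentile in both marks.

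The leading bivalent promoters were ranked in the same way, by the lower percentile of H3K4me3 and H3K27me3. CYP26A1, which breaks down retinoic acid, had 145, 133 and 131 RPM of H3K4me3 and 425 and 443 of H3K27me3, with all libraries close to each other. PAX9, a paired-box regulator of the skeleton and pharyngeal pouches, had 128, 144 and 119 RPM of H3K4me3 and 606 and 533 of H3K27me3. ISL2 (motor neurons), VGLL2 (muscle), PAX6 (eye and brain) and TBX20 (heart) were the other developmental regulators among the 12 leaders. Their H3K27me3 lay between the 96.7 and 98.7 percentile and their H3K4me3 between the 79.8 and 86.0. SLITRK1, a neuronal adhesion protein, had 444 and 434 RPM of H3K27me3, and SSTR1, a somatostatin receptor, 442 and 283. HSPA2, a testis chaperone, had the lowest H3K27me3 of the 12, at 270.0 and 305 RPM. B3GNT3 and PRSS16 had 344 and 293, and 719 and 619 RPM. TRAV21, a T cell receptor segment, had unequal values of 402 and 942 RPM in the H3K27me3 libraries and 46.8, 204 and 140.2 in the H3K4me3 ones. It belongs to a multigene family whose reads the counting may split, so its level is uncertain.

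Polycomb-only promoters, with H3K27me3 and neither active mark in the tables, were ranked by that mark. TTBK1, a brain kinase that phosphorylates tau, had 623 and 505 RPM of H3K27me3 and stood at the 99.4 percentile. BCAN and NCAN, proteoglycans of the brain matrix, had 415 and 434 RPM and 378 and 376 RPM. SLC8A2, a neuronal sodium and calcium exchanger, had 557 and 394 RPM, TTYH1, a chloride channel of glia and neurons, 503 and 339, and SRRM3, a neuronal splicing factor, 486 and 351. In all 3 lamb 1 was the higher library. PAX1, a paired-box regulator of the spine, had 444 and 379 RPM. IGFBP1, a liver-secreted binder of insulin-like growth factors, had 385 and 382 RPM. KLK5 (549.7 and 397 RPM), CYP2B6 (474 and 369.5), TP-1 (491 and 514) and the T cell receptor segment TRAV24 (317 and 514) completed the 12 and come from multigene families, with the uncertainty that brings.

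Three-mark promoters were ranked by their lowest percentile among the marks. FGF-10, a growth factor that stromal cells of fat release, had 119.6 and 132 RPM of H3K27ac, 209.8, 159.6 and 158 of H3K4me3 and 201 and 169 of H3K27me3. DKK2, a secreted WNT modulator, had 89.6 and 91.8 RPM of H3K27ac, 207, 164 and 149 of H3K4me3 and 351 and 262 of H3K27me3. EFEMP1, an extracellular matrix protein, had 85.6 and 101 RPM of H3K27ac and 199 and 194 of H3K27me3. The others of the 8 leaders were ARSJ, an arylsulfatase, SERPINB9, an inhibitor of granzyme B, SLITRK5, CTBS, a lysosomal chitobiase, and PCDH7, a protocadherin. The lowest percentile of any mark among the 8 was 72.3. Without lamb 1, only 3 of the 8 stayed among the leaders.

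The smaller classes were ranked likewise. H3K27ac-only promoters were led by RCBTB2, MBD2, a reader of methylated DNA, ETV6, DAAM1 and GNE, at 140.2 to 169 RPM. Without lamb 1, 3 of these 5 stayed leaders. Promoters with H3K27ac and H3K27me3 were led by SEC61G, NGFR, the low-affinity neurotrophin receptor, LRRC2, NOL3 and KANK4. SEC61G had 164 and 88.7 RPM of H3K27ac, the most unequal of the 5. Without lamb 1, 3 of the 5 stayed leaders, and without lamb 2, 2 of the 5. H3K4me3-only promoters were led by SUPT4H1, a transcription elongation factor, with 37537, 75054 and 79760.0 RPM, or 3.66, 7.64 and 8.03% of all promoter reads of its libraries. MGEA5 (1081, 2491 and 2377 RPM), FGD5 (894, 1535 and 1749.9), SMAP2 and OTX1 followed. All 5 were lowest in lamb 1, and the highest promoters with both active marks, TDP2 among them, lay far below SUPT4H1. The medians of the H3K4me3 libraries were 63.6, 63.5 and 62.9 RPM, and the class itself had a median percentile of 19.3. Whether such extreme levels are promoter signal was not tested.

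Gene lists placed these classes in the biology of the tissue. Counts are over list members found in at least 1 of the 3 tables, so a member in none is left out. Housekeeping lists were mostly in the class with both active marks, with 37 of 42 respiratory chain genes, 24 of 28 proteasome genes, 23 of 29 cytosolic ribosomal proteins and 27 of 33 cell cycle genes, against 44.4% of all genes and 51.8% of those with a symbol. All 26 adipocyte genes found were in both the H3K27ac and the H3K4me3 table, 18 with the active pair and 8 with H3K27me3 as well. Of 141 developmental transcription factors, 84 were bivalent, 45 had all 3 marks, 5 had H3K27me3 alone and 1 had it with H3K27ac, so that 135 (95.7%) were in the H3K27me3 table, against 34.3% of all genes and 31.1% of those with a gene symbol. Their median H3K27me3 percentile was 90.6, led by NKX2-3 (601 and 628 RPM), PAX9, OLIG3 (559.6 and 557 RPM) and NEUROD2. Their median H3K27ac percentile, over the 50 that carried it, was 9.5. Of 58 signalling ligands 50 were in the H3K27me3 table, with 21 bivalent and 21 of all 3 marks. SHH had 582 and 419 RPM of H3K27me3, and INHBA, a subunit of activin, 383 and 440.4. BMP4, which commits precursor cells to fat, was in the three-mark class with 238, 159.6 and 179 RPM of H3K4me3 and only 68.7 and 117 of H3K27me3.

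Lists for other cell types fell into different classes. All 18 endothelial and all 26 stromal genes were in the H3K27ac table, with 8 and 14 of them also in the H3K27me3 table. Over all genes 71.6% were in the H3K27ac table, and over those with a symbol 78.5%. For the H3K27me3 table the shares were 34.3% and 31.1%, for bivalent genes 8.73% and 8.26%, and for H3K27me3 only 13.1% and 9.26%. TEK, a vascular receptor, had 153 and 142 RPM of H3K27ac, CD34, a marker of stromal and endothelial precursors, 162 and 143, and SPARC, a matrix protein, 153 and 135. KDR, the main VEGF receptor, carried all 3 marks with 155 and 182 RPM of H3K27me3. Of 21 kidney and epithelial genes 8 were bivalent and 8 had H3K27me3 only, including CDH1, the epithelial cadherin (282 and 317 RPM), and NPHS1 of the kidney filter (427 and 305 RPM). Of 45 neuronal channel and receptor genes, 24 were bivalent and 10 had H3K27me3 only, with HTR1A, a serotonin receptor, at 555 and 449.6 RPM. Of 19 skeletal muscle genes 14 were in the H3K27me3 table, MYOD1 among them with 439 and 357 RPM. The adrenal list, for the gland next to this depot, had 9 of 11 genes in the H3K27me3 table and 3 in the H3K27ac table, where CYP17A1, a steroid hydroxylase, reached 144 and 138 RPM. Of 18 lymphocyte genes 9 were in the H3K27ac table and 11 in the H3K27me3 table, and of 16 macrophage genes 9 and 7. These immune lists were thus marked both ways. The macrophage shares (56.25% and 43.75%) lay nearer those over all genes than the lymphocyte shares did (50% and 61.1%). Of 12 smooth muscle and pericyte genes 9 were in the H3K27me3 table and 9 in the H3K27ac table, and of 7 mesothelial genes 5 and 3.

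**Figure D3:**
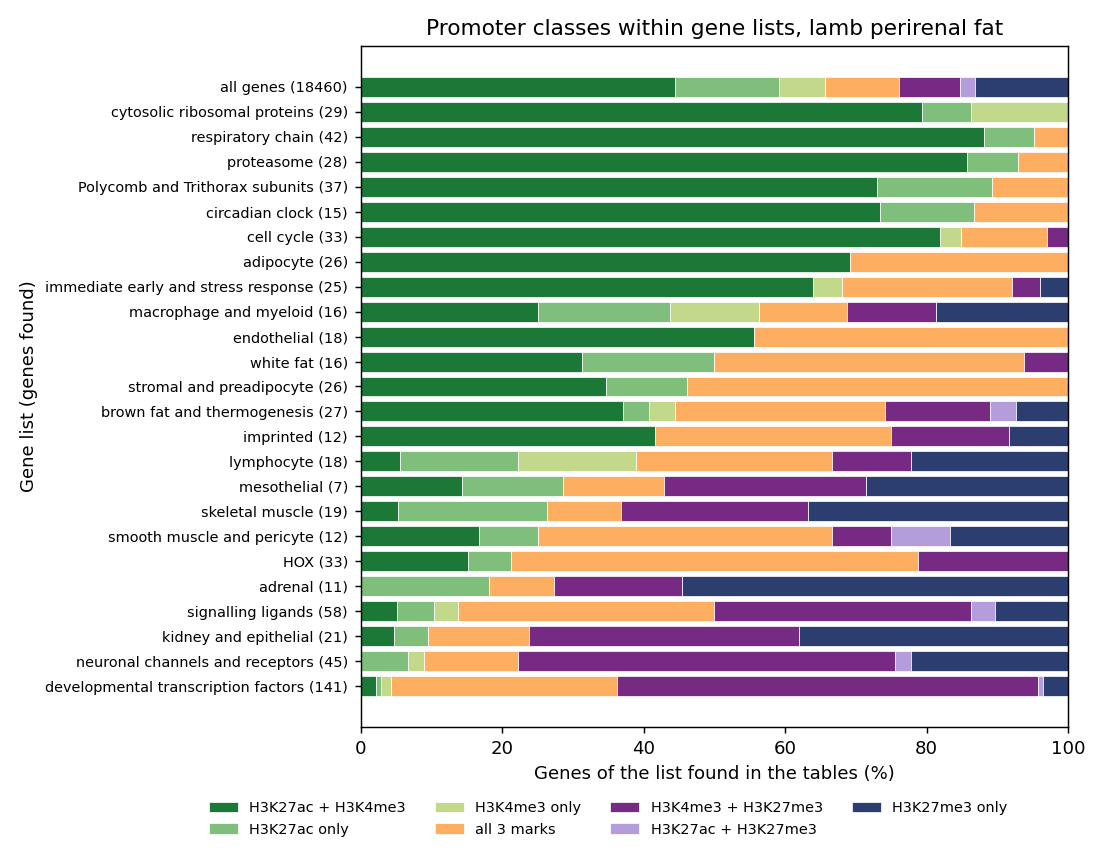
Share of the genes of each list (x axis, percent) in each of the 7 promoter classes, shown by colour, for 24 lists and all 18460 genes (y axis, with the number of genes found). Lists are ordered by their share in the H3K27me3 table, from cytosolic ribosomal proteins at 0 of 29 to developmental transcription factors at 135 of 141.

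The main genes of white and brown fat were spread over several states. ADIPOQ, which encodes adiponectin, had 130.3 and 127 RPM of H3K27ac, at the 95.2 percentile, and 49.9, 71.4 and 48.4 RPM of H3K4me3, at the 43.8 percentile. FABP4, the fatty acid carrier of adipocytes, had 126 and 111 RPM of H3K27ac and 63.0, 46.4 and 48.8 of H3K4me3. Both had no H3K27me3 listing and much higher ranks in H3K27ac than in H3K4me3. PLIN1, which coats lipid droplets, had 112 and 116 RPM of H3K27ac, 64.0, 79.0 and 67.2 of H3K4me3 and a low 125 and 70.8 of H3K27me3. LPL, which frees fatty acids from lipoproteins, had 89.8 and 107 RPM of H3K27ac, 123, 107 and 81.6 of H3K4me3 and 125 and 160.1 of H3K27me3. LEP, the gene of the satiety hormone leptin, was at the 10.8 percentile of H3K27ac with 43.3 and 42.3 RPM and at the 89.4 percentile of H3K27me3 with 272 and 296 RPM.

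UCP1, the uncoupling protein of brown fat, carried all 3 marks. It had 52.5 and 54.6 RPM of H3K27ac (22.6 percentile), 47.8, 75 and 65.6 of H3K4me3 (49.5) and 326 and 342 of H3K27me3 (93.9). Both lambs placed UCP1 above the 90th percentile of H3K27me3. ADRB3, the receptor through which noradrenaline starts heat production, had 67.6 and 50.5 RPM of H3K27ac and 245 and 172 of H3K27me3, and CIDEA, a lipid droplet protein of brown fat, 57.5 and 57.8 and 110.4 and 86.2. PPARGC1A, the coactivator that drives mitochondrial genes, had the active pair only, with 91.7 and 101 RPM of H3K27ac and 78.6, 73.0 and 61.7 of H3K4me3. DIO2, which makes active thyroid hormone, also had the active pair only, at lower levels of 57.0 and 61.3 and of 40.3, 37.7 and 34.0 RPM. PRDM16, a regulator of brown fat identity, was listed for H3K27me3 only, at 137 and 77.0 RPM. PPARG had no entry under its symbol. Over the 27 brown fat and thermogenic genes found, 10 had the active pair, 8 all 3 marks and 4 were bivalent, and 15 (55.6%) were in the H3K27me3 table. Over all genes these shares were 44.4%, 10.3%, 8.73% and 34.3%, and over those with a symbol 51.8%, 11.9%, 8.26% and 31.1%. LHX8 had the highest H3K27me3 level of the 15 (299 and 413 RPM), followed by UCP1, BMP7 (348 and 271) and ZIC1 (319 and 280.2). Of 16 white fat genes 8 (50%) were in the H3K27me3 table.

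**Figure D4:**
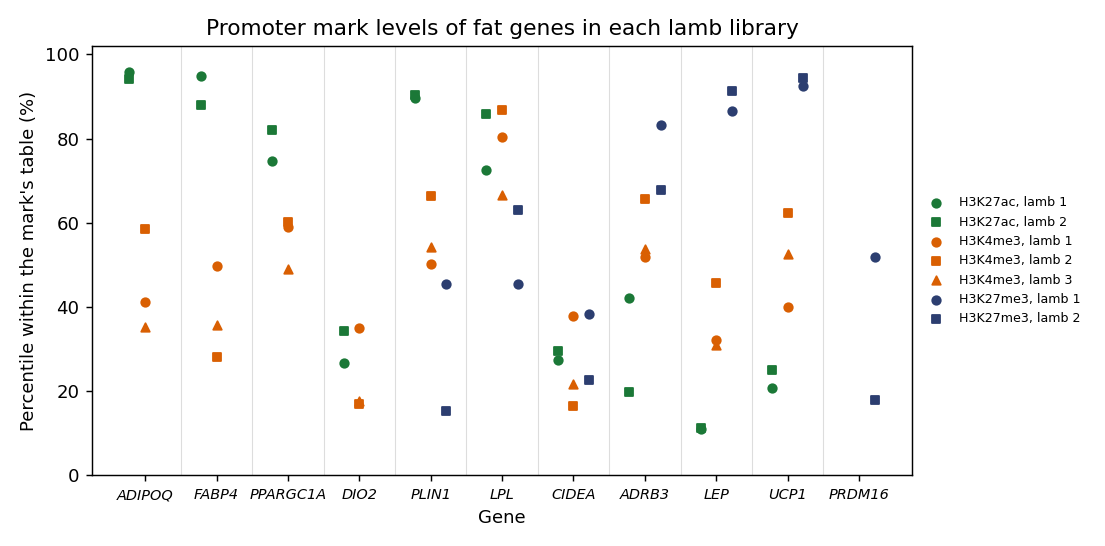
Percentile within the mark's own promoter table (y axis) of 11 fat genes (x axis) in each lamb library, with colour for the mark and symbol for the lamb. ADIPOQ and FABP4 are high in H3K27ac and not listed for H3K27me3, while UCP1 and LEP are high in H3K27me3 and low in H3K27ac.

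HOX genes, which record position along the body axis, differed in state along their clusters. Of the 33 found, 5 had the active pair, 2 H3K27ac alone, 19 all 3 marks and 7 were bivalent. The 7 bivalent genes were the 7 of paralogue groups 11 to 13, which lie at the end of each cluster that is used at the rear of the body. They were at the 94.1 to 99.8 percentile of H3K27me3, and none was in the H3K27ac table. HOXD13 had 604 and 761 RPM of H3K27me3 and 72.0, 109 and 82.4 of H3K4me3. HOXB13 had 498 and 499 RPM of H3K27me3. All 12 genes of groups 1 to 5 were in the H3K27ac table, with a median percentile of 68.3, and 6 of them were in the H3K27me3 table, with a median percentile of 25.6. All 14 of groups 6 to 10 had both active marks and 13 had H3K27me3. Among these, HOXA6 had no H3K27me3 listing and 134 and 133 RPM of H3K27ac. HOXC6, HOXC8, HOXC9 and HOXC10 carried all 3 marks, with H3K27ac at the 53.9 to 94.0 percentile and H3K27me3 at the 68.1 to 89.7. HOXC6 had 119 and 128 RPM of H3K27ac beside 253 and 240.2 of H3K27me3. HOXD8 and HOXB7 were listed for H3K27me3 but had only 17.2 and 33.9 and 29.5 and 33.9 RPM of it in the lambs. Genes of a cluster lie close together, so their promoters are not independent.

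**Figure D5:**
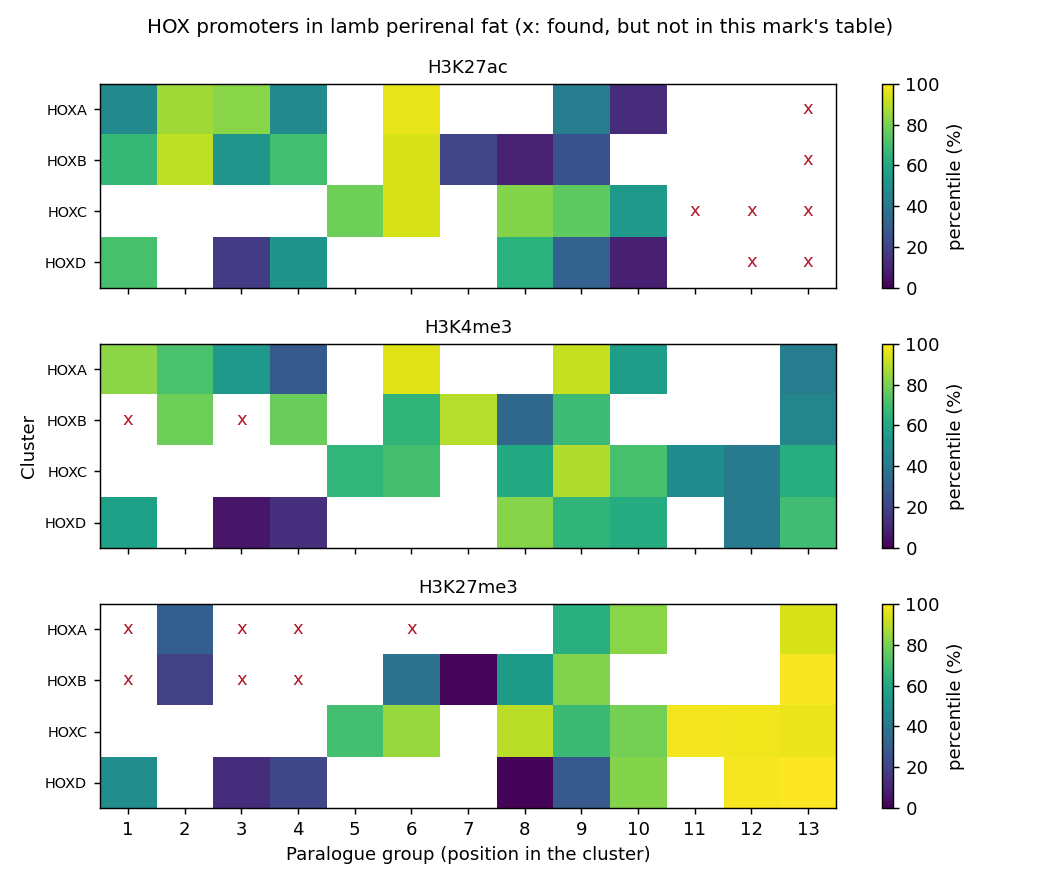
Percentile within each mark's promoter table (colour, percent) of the HOX genes found, by cluster (rows) and paralogue group (x axis, 1 to 13), with 1 panel a mark, a cross for a gene found but not listed for that mark and white for a gene not found. Groups 11 to 13 are listed for H3K4me3 and H3K27me3 and not for H3K27ac.

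The balance between 2 marks at a gene was tested as a difference of log2 levels, each library first set to a median of 0 over the promoters that both tables list. The tables were normalized separately and the marks come from different antibodies, so a difference says where a gene stands relative to the typical joined promoter and not which mark is more abundant. Of 2297 promoters with H3K27ac and H3K27me3, 21.7% leaned to H3K27ac and 25.1% to H3K27me3 (limma, adjusted p under 0.05). Developmental transcription factors leaned to H3K27me3 at 39 of 46 and to H3K27ac at 0, with a median difference of -1.63, against 0.00 over all joined promoters. White fat genes leaned to H3K27me3 at 6 of 7, the 7 being HOXC8, HOXC9, HOXC10, TCF21, WT1, LEP and IGFBP2. The HOXC genes are also in the HOX list and LEP is also in the adipocyte list. Brown fat genes leaned to H3K27me3 at 4 of 9 and to H3K27ac at 1, and adipocyte genes at 1 and 2 of 8. Differences between these lists were not tested. HOX genes leaned either way, 5 and 5 of 19. UCP1 had a difference of -1.76 (SE 0.16, limma adjusted p = 0.000574), LEP of -1.82 (SE 0.17, limma adjusted p = 0.000574) and ADRB3 of -0.96 (SE 0.22, limma adjusted p = 0.0104), all towards H3K27me3. PLIN1 leaned to H3K27ac by 1.03 (SE 0.26, limma adjusted p = 0.0139), while LPL (0.27, limma adjusted p = 0.319) and CIDEA (0.06, limma adjusted p = 0.837) did not pass. LPL passed without the H3K27me3 library of lamb 2 (limma adjusted p = 0.0329). The calls of ADRB3 and PLIN1 were lost without the H3K27ac library of lamb 2, with limma adjusted p of 0.0705 and 0.0697. The largest differences towards H3K27me3 were at DLK1, the preadipocyte factor, at -3.03 (SE 0.32), OSR2 (-2.58), LHX9 (-2.55), NR5A1, the steroidogenic factor (-2.52), and COL2A1, the cartilage collagen (-2.51). DLK1 had 15.3 and 10.8 RPM of H3K27ac and 331 and 182 of H3K27me3. Its H3K27ac was below the listing level in both lambs (21.7 and 20.8 RPM in lambs 1 and 2). DLK1 thus stands in the H3K27ac table through libraries other than the lambs', and its direction is given as a description. LHX9 was just below that level in lamb 2, at 20.6 RPM. The largest towards H3K27ac were at GSN, an actin-severing protein (3.23), SLC25A3, the mitochondrial phosphate carrier (3.19), ADORA2B (3.05), PRKD2 (3.03) and KDM2B (2.94). In all 5 both lambs were below the H3K27me3 listing level (35.4 and 44.6 RPM in lambs 1 and 2), with 27 and 6.16 RPM at GSN, 19.6 and 9.24 at SLC25A3 and 17.2 and 6.16 at ADORA2B. Neither lamb reached the level at these genes, which stand in the H3K27me3 table through libraries other than the lambs', and their direction is given as a description. Of the 498 promoters that leaned to H3K27ac, 130 had a lamb mean of H3K27me3 below the listing level. None of the 577 that leaned to H3K27me3 had, which their direction largely sets. How many of those 577 had H3K27ac below its own level was not counted. With the lamb means of both marks required to reach the level, 413 and 514 were called.

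H3K4me3 against H3K27me3 was the balance within bivalency. Of 3522 promoters 24.2% leaned to H3K4me3 and 26.7% to H3K27me3. The bivalent class leaned to H3K27me3 at 791 of 1612 and to H3K4me3 at 56, whereas the three-mark class leaned to H3K27me3 at 148 of 1910 and to H3K4me3 at 797. These 2 classes differ only in their H3K27ac listing, which did not enter this balance, and the difference between them was not tested. Neuronal channel genes leaned to H3K27me3 at 17 of 30, skeletal muscle genes at 5 of 7, developmental transcription factors at 71 of 129 and kidney and epithelial genes at 4 of 11. Most joined genes of these lists were bivalent, a class that leaned to H3K27me3 at 49.1%. Adipocyte genes leaned to H3K4me3 at 4 of 8 and to H3K27me3 at 1, endothelial genes at 4 and 0 of 8, and immediate early genes at 5 and 1 of 7. The joined adipocyte and endothelial genes all carried all 3 marks. That class as a whole leaned to H3K4me3 at 41.7%, near the shares of these 2 lists. The strongest leanings to H3K27me3 were at CLDN9, a claudin of tight junctions (-2.50, SE 0.31, limma adjusted p = 7.61e-06), LHX5 (-2.48), SHH (-2.31), OTOP2 (-2.28) and CELF5 (-2.16). CLDN9 had 9.65, 32.9 and 25.8 RPM of H3K4me3 and 442 and 336 of H3K27me3. Those to H3K4me3 were at CDKN2C, an inhibitor of cyclin-dependent kinases (4.02), SLC25A3 (3.99), PRKD2 (3.91), ADORA2B (3.90) and THOC6 (3.85). These 5 also had lamb means of H3K27me3 below the listing level, with 9.82 and 49.3 RPM at CDKN2C, 19.6 and 15.4 at PRKD2 and 22.1 and 15.4 at THOC6, and are given as a description. Lamb means of H3K27me3 were also below the level at 137 of the 853 promoters that leaned to H3K4me3. At the 939 that leaned to H3K27me3 the count was 0, which their direction largely sets. How many of those 939 had H3K4me3 below its own level was not counted. With the lamb means of both marks at the level, 771 and 843 were called. UCP1 (-0.92, limma adjusted p = 0.0032) and LEP (-1.07, limma adjusted p = 0.00156) leaned to H3K27me3, and PLIN1 (1.01, limma adjusted p = 0.00661) and LPL (0.98, limma adjusted p = 0.00711) to H3K4me3. Without the H3K27me3 library of lamb 2 PLIN1 lost its call (limma adjusted p = 0.126), and without that of lamb 1 LPL did (limma adjusted p = 0.125).

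The pair of active marks also differed from gene to gene. Of 10109 promoters, 23.4% leaned to H3K27ac and 27.8% to H3K4me3. Adipocyte genes leaned to H3K27ac at 13 of 26 and to H3K4me3 at 1, with a median difference of 0.44 against -0.06 over all joined promoters, and endothelial genes at 9 and 6 of 18. ADIPOQ had a difference of 1.10 (SE 0.18, limma adjusted p = 0.00145), FABP4 of 1.08 (SE 0.13, limma adjusted p = 0.000359) and PLIN1 of 0.64 (SE 0.14, limma adjusted p = 0.00495). PPARGC1A (0.39, limma adjusted p = 0.0244) and DIO2 (0.57, limma adjusted p = 0.0332) passed too, but with the animals paired as a block over lambs 1 and 2 their limma adjusted p was 0.133 and 0.217. Both calls were also lost without either H3K27ac library (limma adjusted p of 0.0803 to 0.268), and without the H3K4me3 library of lamb 3 (0.0821 and 0.0926). PPARGC1A also lost its call when libraries were centred on the mean (limma adjusted p = 0.0578). UCP1 (-0.22, limma adjusted p = 0.425) and ADRB3 (-0.28, limma adjusted p = 0.2) did not pass, but leaned to H3K4me3 without the wide H3K4me3 library of lamb 1 (limma adjusted p = 0.00871 and 0.0408). CIDEA had 0.46 (limma adjusted p = 0.0619) and passed without that library (limma adjusted p = 0.012). Developmental transcription factors leaned to H3K4me3 at 41 of 48, cytosolic ribosomal proteins at 15 of 23, immediate early genes at 14 of 22, circadian clock genes at 7 of 13, Polycomb and Trithorax subunits at 16 of 31, cell cycle genes at 15 of 31, signalling ligands at 11 of 24 and proteasome genes at 11 of 26. The respiratory chain, at 14 of 39, was nearer the share over all joined promoters. The largest differences towards H3K27ac were at TMEM253 (2.52, SE 0.27), SMAP1 (2.24), APC, the brake on WNT signalling (2.12), SSH2 (2.08) and HMGN3 (2.04). APC had 156 and 152 RPM of H3K27ac, at the 99.0 percentile, and 20.5, 43.7 and 32.0 of H3K4me3. Those towards H3K4me3 were at GADD45B, a stress-response gene (-1.76, SE 0.14), EFNA5 (-1.72), STC2 (-1.69), NCAPD3 (-1.67) and TAF7 (-1.64). EFNA5 (13.1 and 13.3 RPM) and NCAPD3 (16.0 and 16.3) were below the H3K27ac listing level of 21.7 and 20.8 RPM in both lambs. SMAP1 had 17.1 and 12.5 RPM of H3K4me3 in lambs 2 and 3, below levels of 18.7 and 14.8. TMEM253 was below the level in lamb 3 only, at 14.4 RPM. The directions of EFNA5, NCAPD3, SMAP1 and TMEM253 are given as a description.

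Neighbouring genes shared their class more often than the class's own share of genes. RefSeq gene order gave 7006 pairs of adjacent protein-coding genes that were both in the tables. H3K27me3-only genes made up 7.97% of the members of these pairs, and 20.2% of their neighbours were H3K27me3-only too. For bivalent genes the shares were 7.81% and 15.9%, for three-mark genes 12.2% and 18.7%, and for any class with H3K27me3 29.6% and 43.7%. The longest runs of H3K27me3-listed genes held the kallikreins with LRRC4B, SYT3 and SHANK1 (14 genes), 2 keratin clusters (13 genes each) and the HOXD cluster with EVX2 (9 genes). Unlike the pairs, a run could pass over genes that had no match in the tables. By symbol, 33 of 34 keratins, 11 of 12 kallikreins and 53 of 56 olfactory receptors found were in the H3K27me3 table. With no active mark were 24, 8 and 46 of them. All 8 PAX and all 8 LHX genes found were in that table too, at median percentiles of 94.0 and 91.8. Over all genes its share was 34.3%, and over those with a symbol 31.1%. Family members that no table lists were not counted. A member without an active mark is thus found only if listed for H3K27me3, which raises these shares. The order comes from another assembly than the one the reads were mapped to, promoters side by side may share reads, and the families were chosen after the leading genes were known.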

How the data were processed

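The authors mapped reads to the sheep assembly Oar_v3.1 with CLC Genomics Workbench 7.0, per the series design text, and the submitters' processing notes also name MACS and bedtools 2.19.0. The deposited promoter tables hold a scaled signal: per library, every value is a whole multiple of 1 step (within 0.02 reads). No source here states what the scale is relative to or how wide a promoter is, and the lamb input has no values in these tables, so none was subtracted. Levels compare genes only if windows are alike. Here each value was divided by its library's total and a trimmed-mean factor (30% of ratios and 5% of levels trimmed from each end), giving RPM. Balances used limma 3.58.1 with an intensity trend on log2(RPM + 5), Benjamini-Hochberg adjustment and a threshold of 0.05, which understates differences of low promoters. Unlisted mark values were not imputed, and the fits were tested on simulated data.

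Lambs 1 and 2 are the same animals in all marks by the codes in the titles. Their differences correlated across promoters at 0.09 (H3K27ac with H3K27me3), 0.12 (H3K4me3 with H3K27me3) and -0.18 (H3K27ac with H3K4me3). The fits had no block, as designed, and blocked fits were alternatives.

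Named genes, all with symbols, were the leaders of each class by their lowest percentile among its marks, the 5 largest called differences each way per balance, 12 fat genes and the top 4 list members per mark; 1 leader is not reported here. Members and lists were chosen with earlier results of these data known. Names that a spreadsheet turned into dates (11) and 1 blank line stayed unnamed or out. Adjacent genes were taken from RefSeq (ARS-UI_Ramb_v3.0), which matched 11300 of 12803 symbols.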

Additional observations from a re-analysis of the deposited data

How the results depend on the processing

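The class sizes stayed within 1.5 times the listed number when 1, the mean or every lamb library had to reach the listing level, and without any 1 lamb. With every lamb library at 2 times the level, the three-mark class held 807 genes and the class with H3K27ac and H3K27me3 252. Among genes with a symbol there were 1686 with H3K27ac only, 510 with H3K4me3 only, 1057 bivalent, 212 with H3K27ac and H3K27me3 and 1186 with H3K27me3 only. With a symbol were 12803 of 18460 genes, and the class with both active marks then made up 51.8% in place of 44.4%.

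Of the leaders, leaving out 1 lamb kept 3 to 7 of 8 in the three-mark class, 3 to 5 of 5 with H3K27ac only and 2 to 5 of 5 with H3K27ac and H3K27me3. In the other classes at least 9 of 12 or all 5 stayed.

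Leaving out 1 library moved the balance calls most where H3K27ac went down to 1 library, whose spread was then taken from the other mark. Calls towards H3K27ac against H3K27me3 ranged from 171 to 801 (498 with all libraries) and towards H3K27me3 from 371 to 793 (577). Against H3K4me3 they ranged from 1096 to 2921 towards H3K27ac (2361) and from 1605 to 3293 towards H3K4me3 (2809). H3K4me3 against H3K27me3 stayed between 732 and 881 and between 740 and 1004. Pairing the animals as a block gave 568 and 620, 1961 and 1998, and 779 and 810 calls for the 3 balances, and changed no call of a named gene beside PPARGC1A and DIO2. No pseudocount, filter or centring moved a count by over 1.5 times, and no named gene changed direction where it was called.

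Of 490 refits of named genes, 473 kept their call, 13 lost it and 4 gained it. All the changes were at fat genes, namely UCP1, PPARGC1A, DIO2, ADRB3, CIDEA, PLIN1 and LPL. Genes named for their large differences did not change, but they were picked as called, so the pooled count overstates how stable the fat genes were. The alternatives with count models were not run, since the values are a scaled signal, and neither was the comparison of promoter base content, which needs sequences. With about 50 reads behind a median H3K27me3 promoter, small differences in that mark were not detectable at this depth.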

Other observations

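Genes of the chromatin machinery were themselves mostly in the active state. Of 37 Polycomb and Trithorax subunits, all were in the H3K27ac table, 27 with H3K4me3 and without H3K27me3. Over all genes these shares were 71.6% and 44.4%, and over those with a symbol 78.5% and 51.8%. The median H3K27ac percentile of the 37 was 42.2, below the middle of the table. EZH1, EZH2 and EED, of the complex that writes H3K27me3, had H3K27ac and no H3K4me3 listing. KDM5A, which removes H3K4 methylation, had 109 and 115 RPM of H3K27ac and 196, 140.1 and 154 of H3K4me3. PHF19, CBX7, CBX8 and KDM5B carried all 3 marks, with 115 and 200.2 RPM of H3K27me3 at CBX7 and 255 and 148 at CBX8, where lamb 1 and lamb 2 differ in opposite directions.

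Immediate early and stress genes, which are quickly induced, had a median H3K4me3 percentile of 74.4 over the 24 listed. HSPA8, a constitutive chaperone, had 246, 139 and 188 RPM and MYC 215, 142 and 149.9. Of the 25 found, 8 (32%) were in the H3K27me3 table, near the 34.3% of all genes and 31.1% of those with a symbol. The highest of the 8 was NR4A3, a nuclear receptor, with 348 and 548 RPM. Of 12 imprinted genes, 5 had the active pair, 4 all 3 marks, 2 were bivalent, and IGF2 was listed for H3K27me3 only, at a low 61.4 and 49.3 RPM. Over all genes 44.4% had the active pair, 10.3% had all 3 marks, 8.73% were bivalent and 13.1% had H3K27me3 only. CD14, the endotoxin coreceptor of macrophages, had 115 and 109.7 RPM of H3K27ac and 49.1 and 30.8 of H3K27me3, whereas C1QA, a complement subunit of the same cells, was bivalent with 344 and 379 RPM. PROX1, the regulator of lymphatic vessels, had 248 and 366 RPM of H3K27me3 beside 61.5 and 65.8 of H3K27ac.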
